A study of Mus musculus with 17 samples.

Results

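Haematopoietic stem cells (HSCs) with CD41 on their surface were compared with HSCs without it, on 6 of the 17 one-colour expression arrays of the study. Both groups came from the bone marrow of wild-type mice and were sorted for Sca1 and c-Kit and against lineage markers and Flt3 (LSK Flt3- cells). Of the markers the labels list, the groups differed in CD41 alone. By the sample titles 3 arrays were CD41-negative and 3 CD41-positive. The remaining arrays, of long-term HSCs from wild-type and CD41-knockout mice, were not used here. Each sample was the RNA of 1000 sorted cells from pools of 4 to 5 mice, labelled with Cy3 after whole transcriptome amplification. A value is therefore a mean over sorted cells, in which fewer cells of a type and less RNA per cell cannot be told apart. The strain and age of these mice were not given in the sources used here. Whether each replicate had a pool of its own is not in the labels. The p-values therefore cover the spread among these 6 samples, and that spread may be technical.

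CD41 is the integrin alpha-IIb chain, the product of Itga2b. It pairs with the integrin beta-3 chain, the product of Itgb3, to form the receptor through which platelets bind fibrinogen and von Willebrand factor. Platelets are shed by megakaryocytes, which share their precursors and several transcription factors, among them GATA1, with red cells, and CD41 is known as a marker both of the megakaryocyte lineage and of a subset of HSCs. Flt3 marks multipotent progenitors with lymphoid potential, and the SLAM receptor CD48 marks progenitors as opposed to long-term HSCs.

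Levels are given as the log2 of the background-corrected signal minus the 75th percentile of the array, so that 0 is the signal at that percentile, and a difference is CD41-positive minus CD41-negative on that log2 scale. Between 96.0% and 98.5% of the spots for genes exceeded the scanner software's background test on the 6 arrays (here called well above background), and none was saturated. The 75th percentile of the signal lay between 952 and 2377. After filtering, 35304 genes were tested, of which 21632 were annotated genes outside the olfactory and vomeronasal receptor families. Of 1385 such receptor genes on the array, which serve smell, 1349 passed the same filter, so that being well above background did not by itself mark a gene as expressed. The genes of the sort markers Sca1 (Ly6a) and c-Kit (Kit) and the HSC genes Procr and Hlf were well above background on all 6 arrays. Profiles correlated at 0.993 to 0.998 within the groups and at 0.966 to 0.978 between them, as Pearson correlations across genes, which are not independent replicates. All arrays lay on 1 slide with each group in a row of its own, so that group and row cannot be told apart. The number of arrays limits the precision.

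Itga2b was higher in the CD41-positive HSCs, as the labels have it. Its levels were -0.04, -0.24 and -0.23 on the CD41-negative arrays and 0.73, 0.70 and 0.63 on the CD41-positive arrays. The groups did not overlap, and the difference of 0.86 ± 0.08 (SE), a 1.81-fold higher signal, passed the test (limma adjusted p = 0.000110). Non-overlap was common, found in 14579 of the 21632 annotated genes and 889 of the 1349 olfactory and vomeronasal receptor genes. Over 8 scalings of the arrays the difference of Itga2b ranged from 0.54 to 0.87 and passed under each. The probe starts at base 2349 of the RefSeq transcript and lies, per the array files, on mouse build mm9, chromosome 11, from 102319453 to 102319661.

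The partner chain gave different answers with its 2 probes. The probe with the higher signal, which stood for Itgb3, read 3.18, 2.92 and 2.84 on the CD41-negative and 3.22, 3.29 and 3.04 on the CD41-positive arrays. These groups overlapped, and the difference of 0.21 ± 0.11 did not pass (limma adjusted p = 0.140). Without CD41-negative replicate 1 it was 0.30 and passed (limma adjusted p = 0.0372). The other probe, which starts at base 5665 of the transcript against base 2618 for the first, read -1.69, -1.73 and -1.53 in the CD41-negative and -0.11, -0.01 and 0.09 in the CD41-positive HSCs. There the groups were well apart, with a difference of 1.64 ± 0.09.

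**Figure D1:**
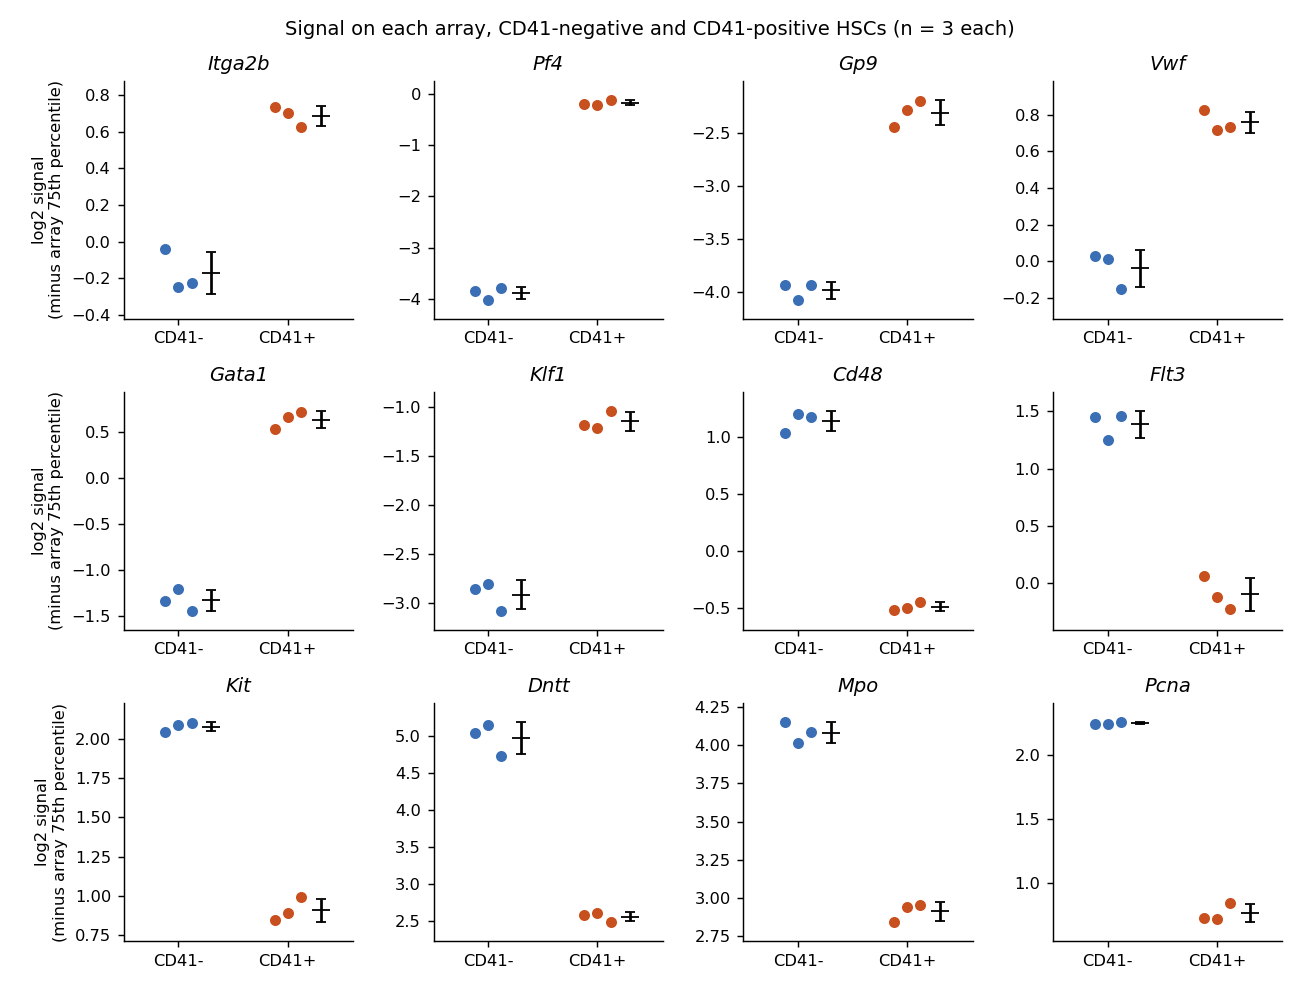
Level of 12 genes on each array, as log2 signal minus the array's 75th percentile, with CD41-negative arrays in blue, CD41-positive arrays in red, replicates 1 to 3 from left to right, and the mean with its SD (n = 3) in black. The vertical scale differs between panels, and the groups do not overlap in any of them: Itga2b, Pf4, Gp9, Vwf, Gata1 and Klf1 are higher and Cd48, Flt3, Kit, Dntt, Mpo and Pcna lower in CD41-positive HSCs. The groups did not overlap in 14579 of the 21632 annotated genes.

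The comparison called many genes. Of the 21632 annotated genes, 6968 (32.2%) rose and 6140 (28.4%) fell in CD41-positive HSCs (limma with Benjamini-Hochberg adjustment, adjusted p under 0.05). These shares are the background against which the counts of list members below are to be read. A change of 2-fold or more with the same test was found for 343 (1.59%) higher and 1401 (6.48%) lower genes. The split of the calls moved with the scaling. Centring each array on its median gave 5624 higher and 6549 lower, quantile normalization 6399 and 6625, cyclic loess 4783 and 7199, and centring within 10 bins of probe GC content 4559 and 6922. Normexp background correction gave 5987 and 5750, and values tabulated by the authors gave 6527 and 6747. Centring on the olfactory and vomeronasal receptor genes gave 1630 higher and 9642 lower. Under all 8 scalings 1559 genes were higher and 5416 lower, of which 75 and 945 changed 2-fold or more under each. The lower genes thus outnumbered the higher ones among changes of 2-fold or more under every scaling run. Centring on those receptor genes lowers every difference by the same amount, so that small rises lose their call and falls grow by construction. Counts of calls that held under all 8 scalings therefore favour falls.

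The sets that serve as a reference for the overall shift stood above the annotated genes. The median difference was 0.31 for the 1349 olfactory and vomeronasal receptor genes, of which 742 were called higher and 55 lower. For 4586 long intergenic RNA (lincRNA) loci it was 0.24, with 2182 higher and 411 lower, and for the annotated genes it was 0.09. On the single arrays the receptor genes had medians of -2.25, -2.22 and -2.19 in the CD41-negative and -1.95, -1.93 and -1.88 in the CD41-positive HSCs. The lincRNA medians were -0.10, -0.15 and -0.16 against 0.10, 0.07 and 0.04. Neither set overlapped between the groups, and each gave p = 0.1 in an exact two-sided permutation test of the 6 array medians, the smallest p that 3 against 3 arrays allow. For the annotated genes the array medians went the other way, by -0.04, although the median of the gene differences was above 0. Those array medians did not overlap between the groups either, with p = 0.1 in the same permutation test. A gene with a small rise thus lay within the shift of these reference sets, and the medians of the gene lists are given on the same scale.

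The shift also varied with signal and with probe composition. Among 10 equal bins of the annotated genes ordered by mean signal, the median difference went from 0.21 in the dimmest bin to 0.01 in the brightest. The share of genes 2-fold higher went from 5.36% in the dimmest bin to 0.693% in the brightest, while the share 2-fold lower was 5.36% in the dimmest, reached 8.74% in bin 7 and was 3.56% in the brightest. In 5 bins by probe GC content, genes with the lowest GC (median 35%) had a median difference of -0.05 and 11.6% of them were 2-fold lower, against 0.20 and 1.09% for those with the highest (median 53.3%). Within signal bin 7 these 2 GC bins had medians of -0.44 and 0.22, and within the brightest bin -0.04 and 0.08. Of the lowest differences given below, the probes of Ctss, Cd53 and Mn1 had 35%, 36.7% and 35% GC, and those of Itgb1 and Dntt 45%. How far signal and probe GC bear on single genes was not tested beyond the centring within GC bins given above.

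**Figure D2:**
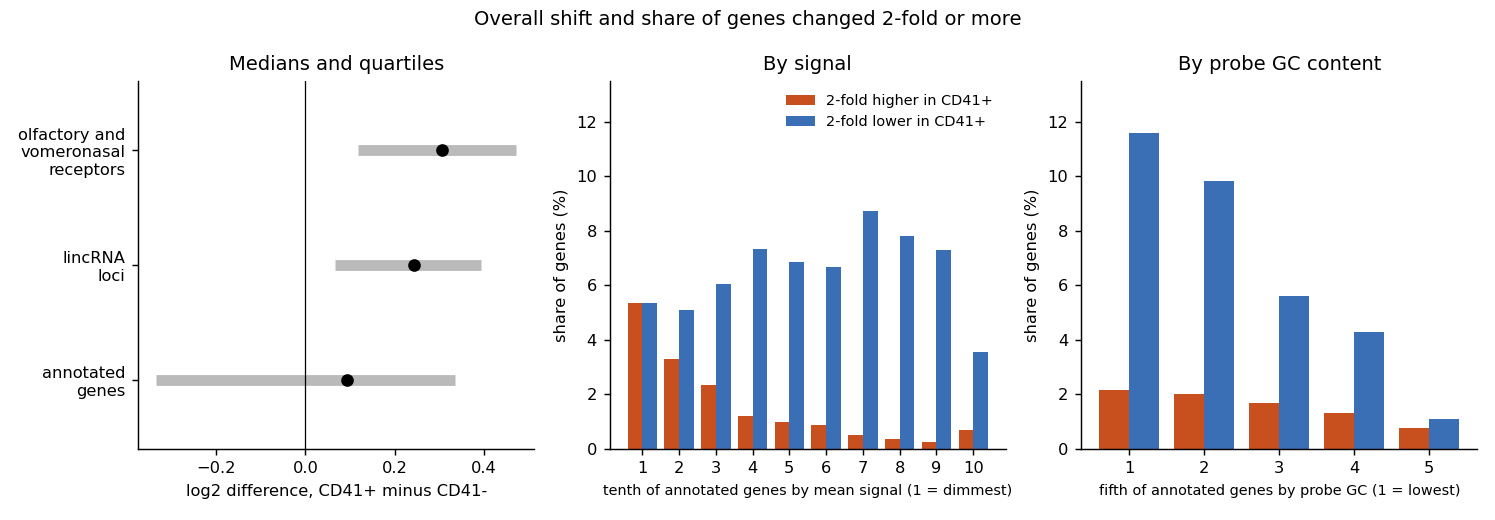
Left, median (point) and quartiles (bar) of the log2 difference, CD41-positive minus CD41-negative, for annotated genes, lincRNA loci and olfactory and vomeronasal receptor genes. Middle and right, share of annotated genes changed 2-fold or more in each direction, in 10 bins of mean signal and 5 bins of probe GC content: genes 2-fold higher are mostly dim, and genes 2-fold lower are most frequent at low GC (11.6% against 1.09%).

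Platelet genes gave the highest single difference, and as a group they were split. Pf4, the platelet chemokine platelet factor 4, had levels of -3.84, -4.02 and -3.79 in the CD41-negative and -0.19, -0.21 and -0.11 in the CD41-positive HSCs. This 13.1-fold higher signal (3.72 ± 0.08, limma adjusted p = 5.34e-06) was the highest difference among annotated genes well above background on all arrays. Gp9, the glycoprotein IX subunit of the von Willebrand factor receptor, read -3.94, -4.07 and -3.93 against -2.44, -2.29 and -2.20, which is 3.18-fold higher. Both genes were far apart between groups and close within them.

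Of 25 platelet surface receptor genes, 12 rose and 2 fell, with a median of 0.28, beside 32.2% and 28.4% of all annotated genes. Gp1ba, the ligand-binding subunit of the same receptor, rose by 0.75 ± 0.09, but its partners Gp1bb (0.06, limma adjusted p = 0.681) and Gp5 (0.08, limma adjusted p = 0.396) did not pass. Adra2a, the alpha-2A adrenergic receptor, rose by 1.38 ± 0.09, Selp (P-selectin) by 0.84 ± 0.09, Esam, an adhesion molecule of platelets and endothelium, by 0.81 ± 0.09 and Mpig6b, an inhibitory platelet receptor, by 0.79 ± 0.17. Treml1, a receptor of alpha granules, rose by 0.63 ± 0.09 and Gp6, the collagen receptor, by 0.42 ± 0.06. The thrombin receptor gene F2rl3 (-0.64 ± 0.08, but -0.34 with its probes averaged) and the thromboxane receptor gene Tbxa2r (-0.34 ± 0.07) fell. Of the 12 receptor genes that rose, 7 did so under all 8 scalings, and both that fell did, a count that favours falls by construction.

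Among 32 genes of platelet granules, secretion and cytoskeleton, 15 rose and 8 fell, with a median of 0.24. The shares over all annotated genes were 32.2% and 28.4%. Vwf, which encodes von Willebrand factor, read 0.03, 0.01 and -0.15 in the CD41-negative and 0.83, 0.72 and 0.73 in the CD41-positive HSCs, a difference of 0.80 ± 0.08. Cavin2, a caveola component found in platelets, rose by 0.84 ± 0.13. Against these, Rgs18 (-1.58 ± 0.08), a regulator of G-protein signalling in platelets, Srgn (-1.31 ± 0.07), the granule proteoglycan serglycin, Plek (-1.10 ± 0.09), the kinase substrate pleckstrin, and F13a1 (-1.09 ± 0.13), coagulation factor XIII A, fell by 2-fold or more. Tubb1, the beta-tubulin of platelets, did not pass (0.28, limma adjusted p = 0.0820), though it did with normexp (0.32), with the authors' values (0.30) and without CD41-negative replicate 1 (0.38) or CD41-positive replicate 3 (0.35). Neither did Ppbp, another abundant platelet chemokine (0.09, limma adjusted p = 0.540). The 8 genes that fell include products that leukocytes make too, such as Srgn, Plek and F13a1, and whether that bears on their fall was not tested. With centring on the receptor reference set, the medians of the surface receptor and granule lists were -0.03 and -0.08.

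The transcription factors of the megakaryocyte and erythroid lineages moved in both directions. Gata1 read -1.33, -1.21 and -1.44 in the CD41-negative and 0.53, 0.66 and 0.71 in the CD41-positive HSCs, a 3.89-fold higher signal (1.96 ± 0.09, limma adjusted p = 1.20e-05). Klf1, the erythroid factor, read -2.85, -2.81 and -3.08 against -1.18, -1.21 and -1.04, which is 3.41-fold higher. Runx1t1, a corepressor of the ETO family, rose by 1.82 ± 0.12 and Zfpm1, the GATA1 cofactor FOG1, by 0.67 ± 0.07. All 4 kept their call under all 8 scalings. Gata2, the GATA factor of stem and progenitor cells, rose by 0.30 ± 0.07 but stood at -0.02 with centring on the receptor reference set. In the list of 29 factors, however, 9 rose and 14 fell, with a median of -0.20, beside 32.2% and 28.4% of all annotated genes. Those that fell include Nfe2 (-0.54 ± 0.07), the factor of late megakaryocyte maturation, its partner Mafk (-0.92 ± 0.08), the ETS factor Fli1 (-0.68 ± 0.08), the progenitor factor Myb (-0.80 ± 0.07) and the oxidative stress factor Nfe2l2 (-1.06 ± 0.07). Tal1, a partner of GATA1 in its complex, did not pass (-0.20, limma adjusted p = 0.0814), though it fell with median centring, receptor centring and centring within GC bins. Of the 14 that fell, 12 did so under all 8 scalings.

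Since Itga2b, Pf4, Gata1 and Klf1 rose together, their promoters are shown, 250 bases before to 50 after the start site, from RefSeq on build GRCm38.p6, each written 5′ to 3′ on the strand of its gene. Capitals mark matches on either strand to a GATA motif, searched as AGATAA and as TGATAA and with G in place of the last letter of each, or to an ETS motif, searched as CGGAAG and with a first letter of A as AGGAAG, and no matches overlap. The window of Itga2b (chr11:102469834-102470133, minus strand) held 2 ETS matches and no GATA match, that of Pf4 (chr5:90772185-90772484, plus strand) 1 of each, that of Gata1 (chrX:7967861-7968160, minus strand) 1 ETS match, and that of Klf1 (chr8:84901732-84902031, plus strand) 1 GATA match on the opposite strand.
Itga2b: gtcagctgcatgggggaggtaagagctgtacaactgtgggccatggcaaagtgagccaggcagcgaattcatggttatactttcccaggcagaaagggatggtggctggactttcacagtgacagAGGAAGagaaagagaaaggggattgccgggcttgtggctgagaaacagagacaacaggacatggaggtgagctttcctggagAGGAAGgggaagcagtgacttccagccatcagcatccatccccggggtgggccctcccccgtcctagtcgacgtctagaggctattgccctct
Pf4: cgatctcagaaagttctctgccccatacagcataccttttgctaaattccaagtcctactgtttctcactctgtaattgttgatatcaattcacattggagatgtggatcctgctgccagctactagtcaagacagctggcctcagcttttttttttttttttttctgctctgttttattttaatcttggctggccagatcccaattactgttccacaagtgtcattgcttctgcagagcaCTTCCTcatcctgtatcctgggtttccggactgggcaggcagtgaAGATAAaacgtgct
Gata1: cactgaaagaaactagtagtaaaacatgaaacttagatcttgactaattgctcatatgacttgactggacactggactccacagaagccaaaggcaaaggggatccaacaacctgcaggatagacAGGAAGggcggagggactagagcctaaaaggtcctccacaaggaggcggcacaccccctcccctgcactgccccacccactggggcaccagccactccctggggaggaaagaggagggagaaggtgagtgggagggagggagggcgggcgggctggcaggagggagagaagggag
Klf1: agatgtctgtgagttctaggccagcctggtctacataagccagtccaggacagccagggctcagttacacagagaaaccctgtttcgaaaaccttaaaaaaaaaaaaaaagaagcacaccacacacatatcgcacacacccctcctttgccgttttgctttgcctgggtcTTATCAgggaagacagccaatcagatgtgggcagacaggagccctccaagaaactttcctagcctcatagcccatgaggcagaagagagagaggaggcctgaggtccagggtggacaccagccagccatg
In all 32851 promoters of the table, 29.8% held a GATA motif and 46.5% an ETS motif, and in those of the annotated genes tested 23.3% and 49.6% did. The promoters of the genes 2-fold higher in CD41-positive HSCs held a GATA motif in 25.7% and an ETS motif in 39.7% of cases, and those of the 2-fold lower genes in 16.6% and 55.4%. The median GC content of these promoters was 55.3% for the higher and 62.3% for the lower genes, and 57.7% for all annotated genes tested. A match describes letters and is not a site.

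Genes of red cell function followed the same divided pattern. Of 36 erythroid effector genes, 16 rose and 7 fell, beside 32.2% and 28.4% of all annotated genes. Their median was 0.20, and -0.11 with centring on the receptor reference set. Aqp1, the water channel of the red cell membrane, read -4.39, -4.91 and -4.67 in the CD41-negative and -2.78, -2.59 and -2.55 in the CD41-positive HSCs, a difference of 2.02 ± 0.14. The blood group gene Rhd rose by 0.84 ± 0.11. Epor, the erythropoietin receptor, rose by 0.75 ± 0.28, at -1.55, -2.72 and -1.66 against -1.20, -1.22 and -1.27. The size of that rise rested on CD41-negative replicate 2, without which it was 0.38, and its call was lost under 5 of the 7 other scalings and without any single CD41-positive array. The transferrin receptor gene Tfrc fell by 1.51 on the log2 scale, the haem transport gene Tmem14c by 1.14 and Car2, carbonic anhydrase 2, by 0.89. The globins were opposed: Hba-a1 rose (0.52 ± 0.08) and Hbb-bt fell (-0.80 ± 0.09). Globin genes have near-identical copies, so the source of their signal is uncertain. Of the 16 genes that rose 3 did so under all 8 scalings, against all 7 that fell, a contrast that favours falls by construction, as given above.

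Markers of other cells that a marrow sort could hold were examined beside these groups. Of 13 platelet and mature megakaryocyte markers, 7 rose and 0 fell, and their summed signal, in units of the array's 75th percentile, was 8.23 to 8.98 in the CD41-negative and 11.9 to 13 in the CD41-positive HSCs. This list holds Itga2b, the gene of the sorted marker, and Pf4, Gp9 and other genes given above, so it is not a separate observation. Of 9 mature erythroblast markers, among them Rhd, Hba-a1 and Hbb-bt as given above, 7 rose and 1 fell, with sums of 4.61 to 4.94 against 5.91 to 6.11. Stromal markers rose in 14 of 16 cases, with 1 lower and sums of 5.30 to 5.41 against 7.80 to 7.95, but in 5 of 16 with centring on the receptor reference set. The adipocyte gene Adipoq among them rose by 1.68 ± 0.09. Of 14 endothelial markers 7 rose and 4 fell (14.3 to 14.8 against 16.4 to 16.8), beside 32.2% and 28.4% of all annotated genes. The sums of these 4 lists did not overlap between the groups, which was also so for 14579 of the 21632 annotated genes taken singly. With centring on the receptor reference set, 5 platelet and megakaryocyte, 3 erythroblast and 4 endothelial markers rose, and 0, 1 and 5 fell.

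Leukocyte markers were also examined. In the T and NK cell list 6 of 12 rose and 1 fell (30.2 to 35.9 against 33.4 to 39.3), in the B cell list 5 of 9 rose and 2 fell (57.2 to 85.7 against 70.0 to 104), and in the macrophage list 3 of 12 rose and 1 fell (14.8 to 18.6 against 16.5 to 20.7). For these 3 lists the sums overlapped. Of 9 neutrophil markers 4 rose and 0 fell (6.06 to 6.78 against 7.26 to 8.40). Of 12 markers of mast cells, basophils and eosinophils 5 rose and 1 fell (6.60 to 7.42 against 7.46 to 8.18). In both lists the sums did not overlap, which was also so for 14579 of the 21632 annotated genes taken singly. Over all annotated genes 32.2% rose and 28.4% fell. Medians of the 9 marker lists ran from 0.14 to 0.52, beside 0.31 for the olfactory and vomeronasal receptors. With centring on these receptors, 1 T and NK cell, 0 B cell and 0 macrophage markers rose, and 1, 2 and 4 fell. Among neutrophil markers 1 then rose and 3 fell, and among those of mast cells, basophils and eosinophils 2 rose and 3 fell. Every tested marker in these lists was well above background on at least 1 array of each group. Markers on the array that were not tested, such as Fcrla and Ms4a2, are outside that statement. Their part in the changes of the platelet and erythroid genes was not tested.

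Other integrin genes did not follow Itga2b as a family. Of 18 alpha chain genes 8 rose and 4 fell, with a median of 0.30. With centring on the receptor reference set 3 rose and 5 fell, with a median of -0.01. Of 8 beta chain genes 0 rose and 2 fell, with a median of -0.03. The shares over all annotated genes were 32.2% and 28.4%. Itga2b had the highest difference of the alpha chains. Itga2, the collagen receptor chain of platelets, rose by 0.70 ± 0.26, but by 0.36 without CD41-negative replicate 2, and it lost its call under 5 of the 7 other scalings and without any single CD41-positive array. Itga11 rose by 0.63 ± 0.11, the collagen receptor chain Itga1 by 0.52 ± 0.07 and Itgae, which binds E-cadherin, by 0.51 ± 0.10. Itga4, the chain of the VCAM1 receptor that anchors stem cells in marrow, fell (-0.68 ± 0.10), and its other probe fell further (-1.54 ± 0.08). Itga6 (-0.19, limma adjusted p = 0.162) and Itgav, the alpha-V chain that also pairs with beta-3 (0.52, limma adjusted p = 0.0786), did not pass, though Itgav did without CD41-negative replicate 1 (0.73) or CD41-positive replicate 3 (0.70).

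The common beta-1 chain moved most. Itgb1, the partner of Itga4, Itga1 and many more alpha chains, read 2.49, 2.65 and 2.44 in the CD41-negative and 0.05, 0.03 and 0.14 in the CD41-positive HSCs. It was 5.48-fold lower (-2.45 ± 0.08, limma adjusted p = 1.04e-05), and its second probe, with a wider spread, gave -0.90 ± 0.31. The epithelial chain Itgb6 also fell (-0.23 ± 0.08), but its probes were opposed, their mean gave 0.16, and it lost its call without any one of 5 arrays (all but CD41-negative replicate 1). The leukocyte chains Itgb2 (-0.10, limma adjusted p = 0.219) and Itgb7 (0.03, limma adjusted p = 0.714) did not pass. Among 25 genes of adaptors and activators that switch integrins on, 5 rose and 11 fell, with a median of -0.09. This count and that of the ligands below stand beside 32.2% higher and 28.4% lower of all annotated genes. The small GTPase gene Rap1a fell by 1.54 on the log2 scale and Parvg, gamma-parvin, by 1.13, while Itgb1bp1, a protein that binds the beta-1 tail, fell by 0.92 (its other probe gave 0.01) and Ilk, the integrin-linked kinase, by 0.79. Tln1, the talin that activates integrins, fell by 0.19 and lost its call without any one of 5 arrays (all but CD41-negative replicate 2). Fermt3, the kindlin of blood cells, fell (-0.50 ± 0.07) and Fermt2, the kindlin of other tissues, rose (0.79 ± 0.17). Rap1b, the Rap1 form of platelets, did not pass (-0.15, limma adjusted p = 0.0721). Of 8 genes for ligands of the fibrinogen receptor, 4 rose and 1 fell, with Vwf as above, fibrinogen alpha (Fga) at 0.41 ± 0.08 and thrombospondin (Thbs1) at -0.62 ± 0.10.

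**Figure D3:**
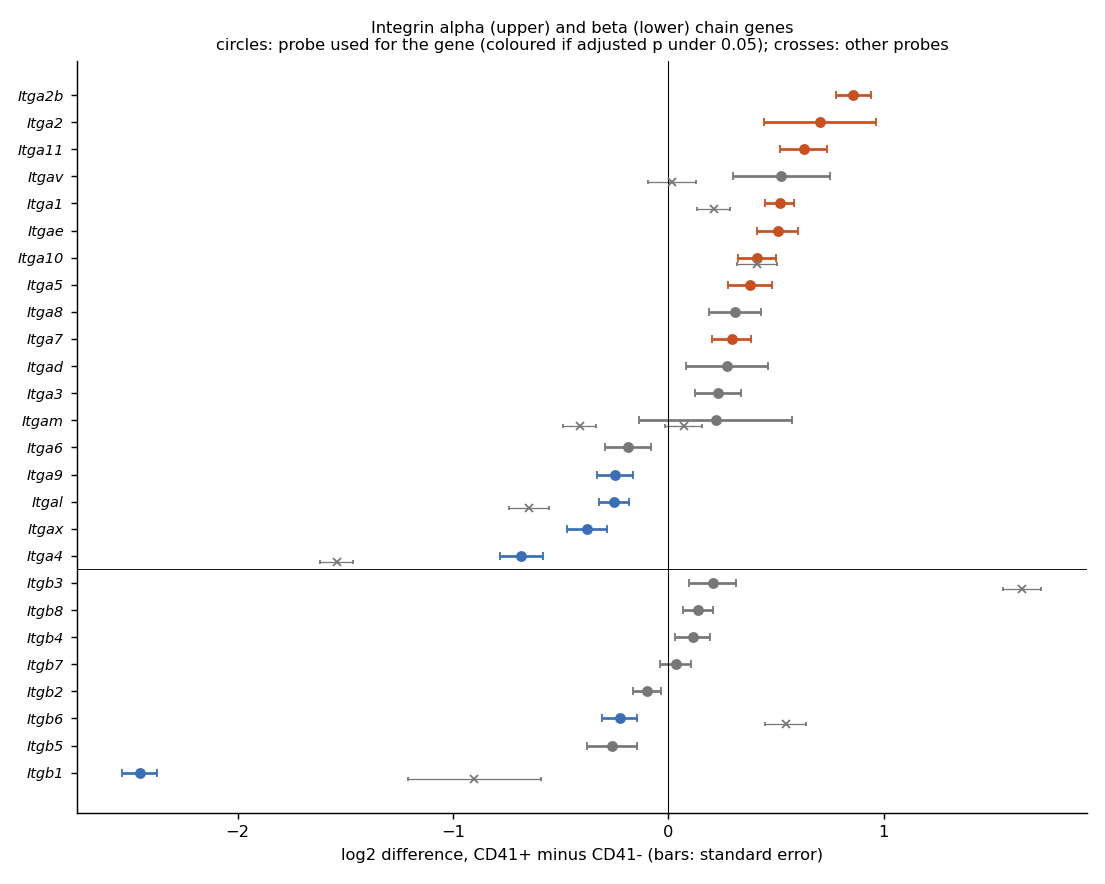
Log2 difference, CD41-positive minus CD41-negative, with its standard error, for the integrin alpha and beta chain genes. Circles are the probe that stands for the gene and crosses its other probes: Itga2b is the highest alpha chain (0.86), Itgb1 the lowest beta chain (-2.45), and the probes of Itgb3 differ (0.21 and 1.64).

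The multipotent progenitor genes were lower almost throughout. Of 27 genes, 0 rose and 24 fell, 14 of them by 2-fold or more, and the median was -1.01. Cd53, a tetraspanin of leukocytes, read 1.22, 1.44 and 1.32 in the CD41-negative and -1.78, -1.74 and -1.71 in the CD41-positive HSCs, an 8.41-fold lower signal. The transcriptional coregulator gene Mn1 fell by 2.58 on the log2 scale and the adhesion receptor gene Adgrl4 by 2.31. Cd48 read 1.04, 1.21 and 1.18 against -0.52, -0.50 and -0.45, a difference of -1.63 ± 0.07. Flt3 read 1.45, 1.25 and 1.46 against 0.06, -0.12 and -0.23, and its second probe gave a difference of -1.87 beside the -1.48 of the first. Both groups had been sorted without surface Flt3. Cd34 fell by 0.83 on the log2 scale, and by 2.20 with its other probe. In 23 of the 24 genes the fall held under all 8 scalings.

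Lymphoid and myeloid genes were divided, with the larger changes downward. Of 40 lymphoid genes 10 rose and 16 fell, beside 32.2% and 28.4% of all annotated genes, and the median was -0.07. Dntt, a DNA polymerase that adds bases during antigen receptor rearrangement, read 5.05, 5.14 and 4.73 in the CD41-negative and 2.58, 2.60 and 2.48 in the CD41-positive HSCs, a 5.35-fold lower signal. The chromatin organiser gene Satb1 (-2.25 ± 0.10), the Ikaros family genes Ikzf2 (-1.74 ± 0.08, but -0.89 with its probes averaged) and Ikzf1 (-1.25 ± 0.09), and the interleukin-7 receptor gene Il7r (-1.60 ± 0.07) fell with it. These are genes of early lymphoid priming. The later B cell factor gene Pax5 (0.52 ± 0.09) and the recombinase gene Rag1 (0.45 ± 0.09) rose, though neither did with centring on the receptor reference set (0.20 and 0.14). Tcf3, the E protein of lymphoid commitment, rose by 0.68 ± 0.07, but its probes were opposed and their mean gave -0.05. All 16 genes that fell did so under all 8 scalings, against 1 of the 10 that rose. This contrast favours falls by construction, since centring on the receptor reference set lowers every difference.

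Of 40 granulocyte and monocyte genes 10 rose and 18 fell, with a median of -0.06, beside 32.2% and 28.4% of all annotated genes. Ctss, the protease cathepsin S, had the lowest difference among annotated genes well above background on all arrays, at 0.24, 0.55 and 0.37 against -2.73, -2.78 and -2.67 (-3.12 ± 0.09). The chemokine gene Ccl3 fell by 2.60 on the log2 scale, and the factors that direct myeloid differentiation fell too: Cebpa (-1.72 ± 0.07), Irf8 (-1.39 ± 0.07) and Spi1, which encodes PU.1 (-0.77 ± 0.10). Mpo, the myeloperoxidase of granulocyte precursors, read 4.15, 4.01 and 4.09 against 2.84, 2.94 and 2.95. Granule and oxidase genes were not uniform, since Elane, neutrophil elastase (0.57 ± 0.08), and Cybb, the oxidase subunit (0.75 ± 0.10), rose. None of the 10 genes that rose reached 2-fold, and 10 of the 18 that fell did.

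Of 42 genes known for long-term HSCs 12 rose and 17 fell, with a median of -0.11, beside 32.2% and 28.4% of all annotated genes. Kit, which encodes the sort marker c-Kit, read 2.05, 2.09 and 2.10 in the CD41-negative and 0.84, 0.89 and 0.99 in the CD41-positive HSCs (-1.17 ± 0.07), and Ly6a, which encodes part of the Sca1 antigen, read 0.46, 0.63 and 0.59 against -0.75, -0.65 and -0.62 (-1.23 ± 0.08). Both sort marker transcripts were thus lower in the CD41-positive cells, although both groups were gated as positive for these proteins. Angpt1, the angiopoietin ligand (-1.14 ± 0.08), Bmi1, the polycomb gene of self-renewal (-1.15 ± 0.12), Hoxa9 (-0.90 ± 0.07, but -0.55 with its probes averaged) and Hlf (-0.71 ± 0.08) fell. The genes that rose include the angiopoietin receptor gene Tek (0.47 ± 0.09), its relative Tie1 (0.71 ± 0.08), Fhl1 (0.74 ± 0.08) and Hoxb5 (0.84 ± 0.23, and 0.54 without CD41-negative replicate 2). Mecom, the HSC factor EVI1, rose by 0.29 ± 0.09 but stood at -0.02 with centring on the receptor reference set and at -0.23 with the mean of its probes, and it lost its call without any single CD41-positive array. Procr did not pass (0.12, limma adjusted p = 0.257).

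Of 30 genes that rise in aged HSCs, 19 were higher and 3 lower, with a median of 0.32. With centring on the receptor reference set 9 were higher and 6 lower, with a median of 0.00. Over all annotated genes 32.2% were higher and 28.4% lower. Those higher include Vwf, Selp and Cavin2 and the stress genes Nupr1 (1.22 ± 0.08) and Mt1 (1.06 ± 0.07), while Alcam (-1.19 ± 0.08) and Exoc6b (-1.44 ± 0.09, but -0.50 with its probes averaged) fell. In 9 of the 19 the rise held under all 8 scalings. In the SLAM family the probe of Slamf1 did not pass the filter, 1 of 8 tested receptor genes rose and 3 fell, and the 2 probes of Cd84 were opposed (0.28 and -1.39), the first losing its call without CD41-negative replicate 3 (0.24), CD41-positive replicate 1 (0.25) or CD41-positive replicate 2 (0.28), while Ly9 fell by 1.18 on the log2 scale beside Cd48.

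Cytokine and chemokine receptor genes fell more often than they rose, at 21 against 10 of 42, with a median of -0.28. Over all annotated genes 28.4% fell and 32.2% rose. The interleukin-1 receptor gene Il1r1 read -1.03, -0.89 and -0.88 in the CD41-negative and -3.06, -3.01 and -2.89 in the CD41-positive HSCs (-2.06 ± 0.08). Cxcr4, the receptor that holds HSCs in the marrow, read 3.13, 3.15 and 3.07 against 1.55, 1.68 and 1.79 (-1.44 ± 0.08). Il6st, the shared signal chain gp130, fell by 1.11 on the log2 scale. The receptor genes for oncostatin M (Osmr, 0.64 ± 0.09) and growth hormone (Ghr, 0.68 ± 0.07, but 0.24 with its probes averaged) rose. In 20 of the 21 genes the fall, and in 3 of the 10 the rise, held under all 8 scalings. That contrast favours falls by construction, as given above.

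In the TGF-beta and BMP pathway, which restrains HSC division, 9 of 30 genes rose and 12 fell, with a median of 0.00. The shares over all annotated genes were 32.2% and 28.4%. The signalling receptors Tgfbr1 (-0.69 ± 0.09) and Tgfbr2 (-0.79 ± 0.10) and the transducers Smad3 (-1.12 ± 0.07) and Smad5 (-1.22 ± 0.08) fell. The coreceptor Tgfbr3 (0.83 ± 0.10) and the ligand Tgfb1 (0.52 ± 0.08) rose. Smad7, the inhibitory SMAD, was dim, that is never well above background, on the CD41-positive arrays and was at least 1.34-fold lower there. Such a bound is the brighter group's mean over the dim group's, where each dim array enters with its probe's signal or, if that is higher, with the faintest signal on the array that was well above background. A gene dim in either group passes the filter only through the other, so the direction of such a bound was fixed in advance. Among the receptors named here, members moved in both directions.

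The replication and G1 gene lists were mostly lower, and the mitotic list was divided. Whether this follows the phase of the cycle was not tested. Of 30 genes of DNA replication and S phase, 23 fell and 1 rose, with a median of -0.59. Pcna, the sliding clamp of DNA polymerase, read 2.25, 2.24 and 2.26 in the CD41-negative and 0.73, 0.72 and 0.84 in the CD41-positive HSCs, a 2.80-fold lower signal. The helicase genes Mcm5 (-1.38 ± 0.09) and Mcm4 (-1.27 ± 0.07) fell, and the gene that rose was Tyms, thymidylate synthase (0.28 ± 0.07), which was at -0.03 with centring on the receptor reference set. Of 15 cyclins, kinases and E2F or pocket protein genes of G1, 9 fell and 3 rose (median -0.55). Myc, which drives entry into the cycle, read 0.44, 0.51 and 0.61 against -1.40, -1.16 and -1.04 (-1.72 ± 0.10). Ccnd1 (cyclin D1, -1.19 ± 0.14), Cdk6 (-1.04 ± 0.07), E2f3 (-1.14 ± 0.07) and the pocket protein gene Rbl2 (-1.82 ± 0.10) fell.

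Of 28 mitotic genes 7 rose and 7 fell, with a median of 0.07, shares near or below those over all annotated genes (32.2% and 28.4%). Top2a, topoisomerase II alpha, fell (-1.19 ± 0.09), while the mitotic genes Birc5, survivin (0.70 ± 0.07), and Cenpf (0.65 ± 0.07) rose. Mki67, the proliferation marker Ki-67, rose by 0.24 ± 0.06 but stood at -0.07 with centring on the receptor reference set, and it lost its call without CD41-positive replicate 2 (0.24). Among 23 genes of cell cycle inhibition and quiescence 5 rose and 11 fell, with a median of -0.14. The stress-induced sestrin genes Sesn1 (-2.11 ± 0.08) and Sesn3 (-1.59 ± 0.07), Rgs2 (-1.65 ± 0.07), the antiproliferative gene Btg2 (-1.44 ± 0.11) and the inhibitor gene Cdkn1b, p27 (-0.70 ± 0.07, but -0.39 with its probes averaged), fell. The inhibitor genes Cdkn1a, p21 (0.93 ± 0.11, but 0.34 with its probes averaged), and Cdkn2a (0.92 ± 0.12) rose under all 8 scalings, and Cdkn1c, p57 (0.38 ± 0.09), under 5 of them. Fewer replication transcripts were thus accompanied by both lower and higher inhibitor transcripts.

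**Figure D4:**
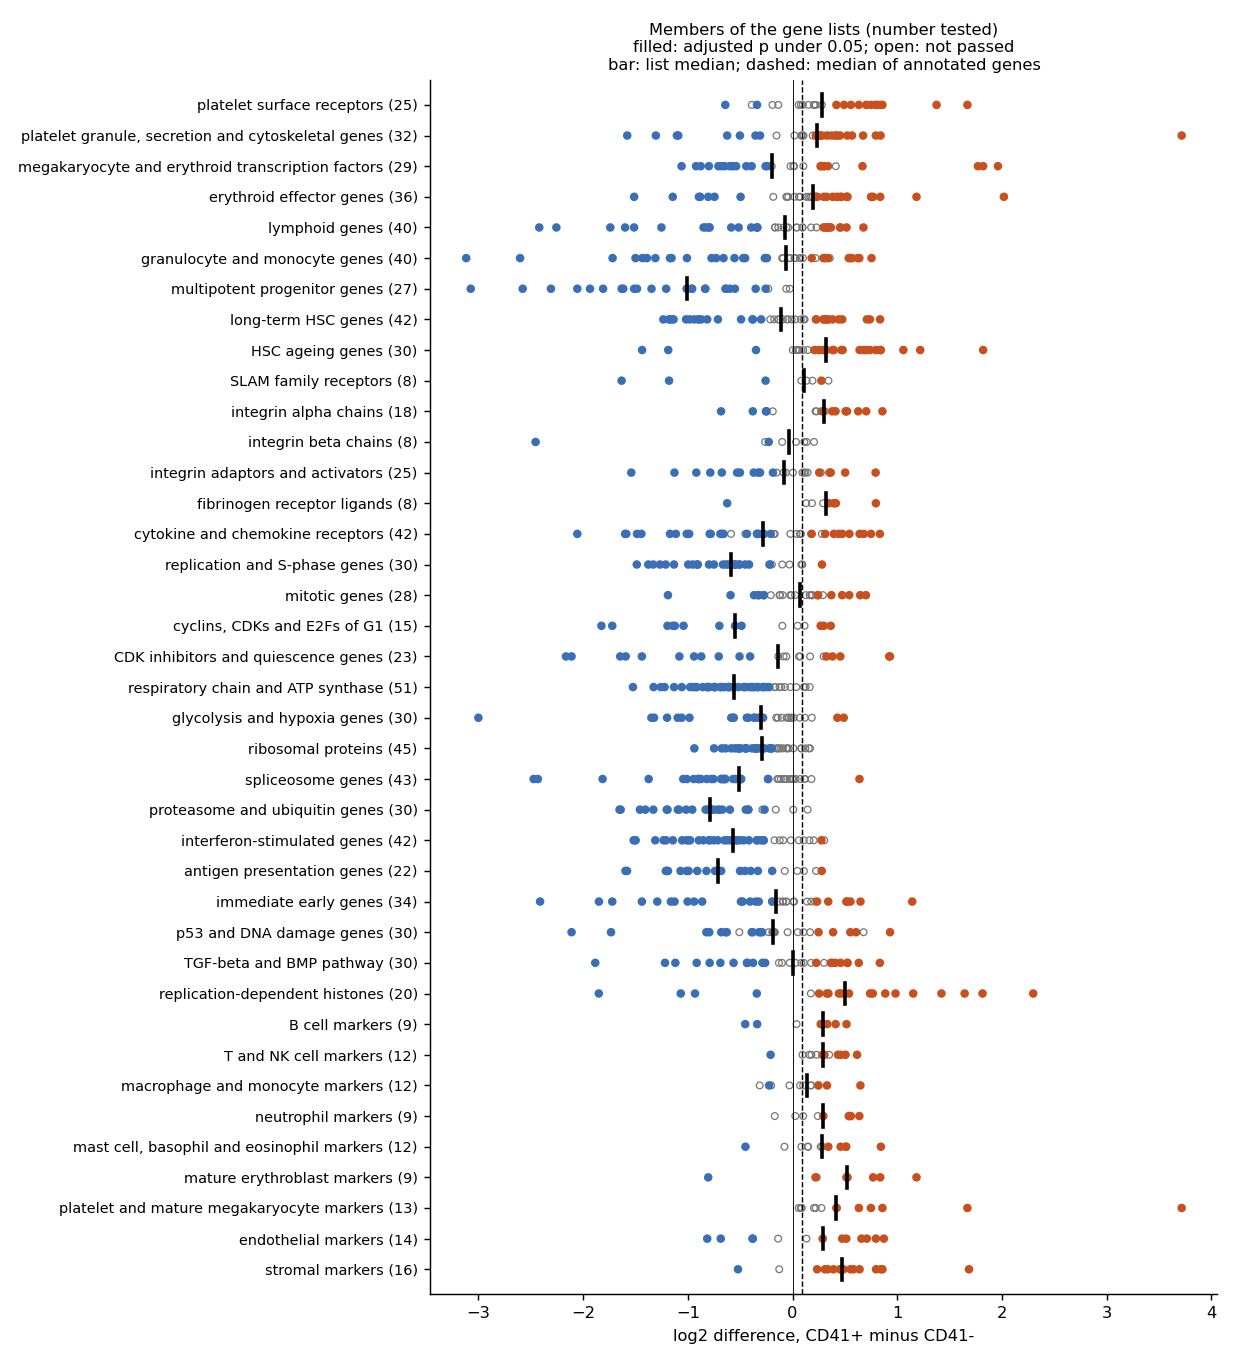
Log2 difference, CD41-positive minus CD41-negative, of each tested member of the 39 gene lists, with filled points for adjusted p under 0.05, black bars for list medians and a dashed line at the median of the annotated genes (0.09). Multipotent progenitor, replication, respiratory chain, proteasome and interferon-stimulated genes lie mostly to the left, and replication-dependent histones, HSC ageing genes and several marker lists to the right.

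Housekeeping machinery was lower as a rule. Of 51 genes of the respiratory chain and ATP synthase, 39 fell and 0 rose (median -0.55), led by Atp5a1, the ATP synthase alpha subunit (-1.52 ± 0.09), Cox7b (-1.33 ± 0.08) and Sdha (-1.22 ± 0.08). Of 30 proteasome and ubiquitin genes 26 fell and 0 rose (median -0.79). The core subunit gene Psma6 read 3.22, 3.31 and 3.22 in the CD41-negative and 1.64, 1.57 and 1.60 in the CD41-positive HSCs, and Psmd14 (-1.65 ± 0.09) and Psma1 (-1.41 ± 0.07) fell with it. Of 43 spliceosome genes 28 fell and 1 rose (median -0.51). The splicing factor gene Cdc40 (-2.47 ± 0.09), the helicase gene Dhx15 (-2.43 ± 0.10) and Hnrnpu (-1.81 ± 0.09) fell, and U2af2, which recognises the splice acceptor, rose (0.64 ± 0.08, but 0.16 and not passing with the mean of its probes). Of 45 ribosomal protein genes 27 fell and 0 rose, by smaller amounts (median -0.29), with Rpl3 lowest (-0.94 ± 0.09), then Rpl6 (-0.75 ± 0.09) and Rpl37 (-0.68 ± 0.08). Ribosomal protein genes have many near-identical pseudogenes, so their values are uncertain to that extent. The falls held under all 8 scalings for 37 of 39, 25 of 26, 26 of 28 and 19 of 27 genes of these lists in turn.

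In glycolysis and the response to low oxygen, 16 of 30 genes fell and 2 rose, with a median of -0.30. Hif1a, the oxygen-regulated factor, read -2.75, -2.57 and -2.66 in the CD41-negative HSCs and -5.58, -5.94 and -5.46 in the CD41-positive HSCs. Since it was well above background on only 1 of these 3 arrays, no size is given for its fall. Egln3, a HIF target (-1.35 ± 0.09), Pgk1 (-1.20 ± 0.09) and Pfkl (-0.98 ± 0.07) of glycolysis fell. Pdk4, which shunts pyruvate away from the mitochondrion, rose (0.43 ± 0.08). Gapdh, of the same pathway, read 6.18, 6.19 and 5.90 against 6.21, 6.17 and 5.92 and did not pass (0.01, limma adjusted p = 0.942).

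Genes of interferon response and antigen display were lower. Of 42 interferon-stimulated genes 32 fell and 1 rose, with a median of -0.57, and the 32 falls held under all 8 scalings. Oas3, an antiviral synthetase, read 1.36, 1.57 and 1.46 in the CD41-negative and -0.13, -0.04 and 0.01 in the CD41-positive HSCs (-1.52 ± 0.08). The GTPase genes Gbp3 (-1.50 ± 0.11) and Igtp (-1.31 ± 0.09) and the interferon signal transducer gene Stat2 (-1.23 ± 0.11) fell. Isg15, a ubiquitin-like modifier, did not pass (0.11, limma adjusted p = 0.312). The gene that rose was Iigp1 (0.28 ± 0.09, limma adjusted p = 0.0309), which was at -0.29 with the mean of its probes and lost its call without CD41-negative replicate 3 (0.20), CD41-positive replicate 1 (0.24) or CD41-positive replicate 2 (0.27).

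Of 22 antigen presentation genes 17 fell and 1 rose (median -0.71). B2m, the light chain of class I molecules, read 2.74, 2.46 and 2.70 against 1.50, 1.58 and 1.60 (-1.07 ± 0.09), and the class I heavy chain H2-K1 fell by 1.01 on the log2 scale. The peptide-loading chaperones Pdia3 (-1.58 ± 0.08) and Canx (-1.20 ± 0.06) and the immunoproteasome subunit Psmb8 (-1.19 ± 0.07) fell. The class II invariant chain Cd74 rose (0.28 ± 0.07) but stood at -0.03 with centring on the receptor reference set. Class I genes of the H2 complex are closely related, so their probes may share signal.

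Immediate early genes, which respond within minutes to stimulation and to cell handling, were divided at 7 higher and 16 lower of 34 (median -0.16). Fos read -0.17, -0.10 and 0.00 in the CD41-negative and -2.07, -1.97 and -1.78 in the CD41-positive HSCs (-1.85 ± 0.09), and Dusp6, a feedback phosphatase of the MAP kinase pathway, fell by 1.29 on the log2 scale. Junb went the other way, at -1.50, -2.37 and -1.28 against -0.59, -0.63 and -0.50 (1.14 ± 0.25), and Jun rose by 0.52 ± 0.18, but by 0.29 without CD41-negative replicate 2. The call of Jun was lost under 5 of the 7 other scalings and without any single CD41-positive array. In the p53 and DNA damage list 5 of 30 rose and 12 fell (median -0.19). This list and the immediate early genes stand beside 32.2% higher and 28.4% lower of all annotated genes. Trp53 itself (-0.68 ± 0.08), the kinase gene Atm (-0.79 ± 0.08) and the repair gene Xpc (-1.73 ± 0.09) fell, whereas the p53 target Cdkn1a rose as given above.

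Of 20 replication-dependent histone genes 15 rose and 4 fell, with a median of 0.50. H4c3 read 1.57, 1.77 and 1.74 in the CD41-negative and 4.00, 4.05 and 3.93 in the CD41-positive HSCs (2.30 ± 0.08), and H4c11 rose by 1.81 ± 0.08. H2bc4 fell (-1.85 ± 0.08). The median stayed above 0 under all 8 scalings, from 0.19 to 0.57, and 9 of the 15 rises held under each. Histone genes of one class are nearly identical and their messages mostly lack a poly(A) tail, so single members are uncertain. Replication genes, which share their S-phase timing with these histones, moved the other way in 23 of 30 cases.

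Among other genes with large differences, Serp2 (2.13 ± 0.13), the palmitoyltransferase gene Zdhhc19 (2.07 ± 0.13), Togaram2 (2.03 ± 0.09), the netrin receptor gene Unc5b (1.99 ± 0.17) and Depdc7 (1.98 ± 0.10) rose, as did the predicted gene Gm10638 (2.14 ± 0.09, but 1.21 with its probes averaged) and the noncoding A930005G22Rik (2.10 ± 0.09). Myh2, a muscle myosin gene, rose by 1.99 ± 0.43 with a wide spread among the CD41-positive arrays (-3.90, -3.71 and -2.10). Snn (-2.47 ± 0.10), the ubiquitin ligase adaptor gene Wsb1 (-2.46 ± 0.08), the antizyme inhibitor gene Azin1 (-2.40 ± 0.09, but -1.48 with its probes averaged) and Arhgap18 (-2.37 ± 0.12) fell. Among genes that were dim, in the sense of the bound given for Smad7, on all CD41-negative arrays, Upk3b was at least 2.97-fold, Col12a1 at least 2.70-fold and Tfap2b at least 2.26-fold higher in CD41-positive HSCs. AA467197, dim on all CD41-positive arrays, was at least 4.50-fold lower. As with Smad7, the filter kept these genes only through their brighter group, so the direction of each bound was fixed in advance.

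**Figure D5:**
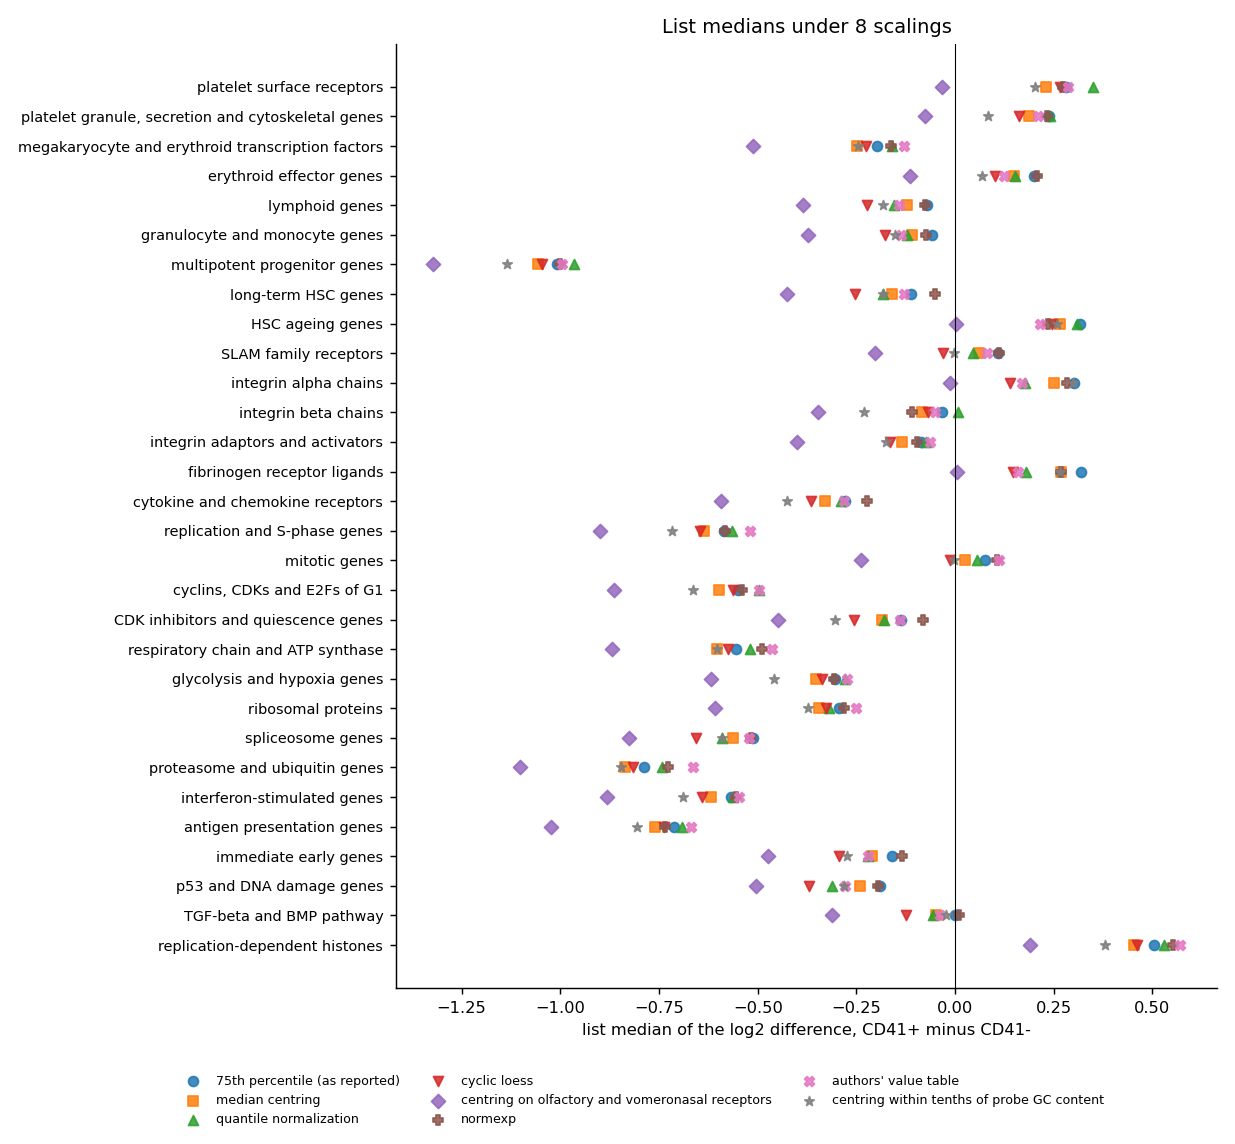
Median log2 difference, CD41-positive minus CD41-negative, of the members of 30 gene lists under 8 scalings of the arrays, 1 symbol per scaling. Lists far below 0, such as multipotent progenitor, proteasome and antigen presentation genes, stay there under each, while the platelet surface receptor and erythroid effector lists go from 0.28 and 0.20 to -0.03 and -0.11 when arrays are centred on the olfactory and vomeronasal receptor genes.

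Among genes changed 2-fold or more, most had every probe pass in the same direction, but over all genes with several probes most did not. Of 5713 annotated genes with 2 or more probes, every probe passed as higher in 762 and as lower in 1137, and 374 had probes that passed in opposite directions. Of 420 such genes changed 2-fold or more by the probe that stood for the gene, 317 had every probe pass in that direction and 18 had a probe pass in the other. That probe is itself among those counted, so part of this agreement was fixed in advance. Across 3160 transcripts with probes at least 500 bases apart, the later probe's difference minus the earlier probe's had a median of -0.03, with quartiles of -0.36 and 0.32.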

How the data were processed

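Per the file headers, the deposited spot intensities came from Agilent Feature Extraction 10.7.3.1, background-corrected within each array. A deposited table gives the authors' own log2 values. They correlated at 0.999 to 1.000 with the log2 mean signal, had medians of 9.46 to 9.48 and were not centred on 0, with a normalization not given in the sources used here.

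Control spots and outlier spots (141 to 264 an array) were left out. The remaining intensities were divided by the array's 75th percentile, taken to log2 and averaged per probe (55681 probes). A probe was kept where every array of either group had it well above background, which left 53958. The brightest probe stood for a gene. Probes were named through RefSeq genes of GRCm38.p6 by accession (26527), symbol (3781) or synonym (714). LincRNA loci (16251 probes) were recognised by their description in the array files, and 8408 probes matched no gene. Both groups were fitted by limma (version 3.58.1, R 4.3.3), using lmFit and eBayes (two-sided, Benjamini-Hochberg over all 35304 genes, threshold 0.05). The fit was checked on simulated data with independent noise for each gene. Those data had no shift or column effect shared among genes, so the check does not cover these. The number of arrays and the signal over background set the precision, since arrays give no read depth.

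Members, gene lists, tests and the rule for named genes were chosen with earlier results of these data known. The rule took Itga2b, the 12 highest and 12 lowest differences among passing genes well above background on all arrays, the 3 members of each list with the smallest p, and a fixed set of genes of general interest (among them Itgb3, Pf4, Vwf, Selp, Gata1, Klf1, Slamf1, Cd48, Flt3, Cd34, Kit, Mpo, Il7r and Dntt). Other list members were named beside them after their values were seen. Not every gene that the rule takes, nor every one of the highest differences, is reported here. Alternatives were 7 other scalings, the filter, the choice of probe, limma's trend and robust options, array weights, a minimum difference (treat), the replicate number as a block and leaving out each array. Centring within bins of probe GC content was added after seeing the data.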

Additional observations from a re-analysis of the deposited data

How the results depend on the processing

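Centring on the olfactory and vomeronasal receptor genes moved the counts to 1630 higher and 9642 lower genes, and to 116 and 2824 for changes of 2-fold or more. Centring within bins of probe GC content gave 4559 higher genes. Testing against a minimum log2 difference of 0.5 (treat) gave 603 higher and 2210 lower genes. The count of genes 2-fold higher, 343 as reported, was 193 with cyclic loess, 137 with normexp and 112 with the authors' values. Leaving out 1 array at a time gave 5042 to 6872 higher and 5424 to 5954 lower genes, 311 to 409 genes 2-fold higher and 1298 to 1528 2-fold lower, and an Itga2b difference of 0.82 to 0.92.

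The median of the olfactory and vomeronasal receptor genes was 0.26 with median centring, 0.24 with quantile normalization, 0.18 with cyclic loess, -0.0087 when they were themselves the centre, 0.27 with normexp, 0.19 in the authors' table and 0.24 within GC bins. The lincRNA median was 0.19 with median centring, 0.16 with cyclic loess, -0.069 with receptor centring, 0.10 within GC bins and 0.21 to 0.27 without single arrays. The annotated median was 0.043 with median centring, 0.044 with quantile normalization, -0.012 with cyclic loess, -0.22 with receptor centring, 0.033 in the authors' table, -0.0081 within GC bins, 0.076 with a gene's probes averaged and 0.069 to 0.11 without single arrays.

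Some named genes with a call in either setting changed sign. With receptor centring these were Cd74 (-0.035), Cd84 (-0.038), Gata2 (-0.017), Iigp1 (-0.038), Itgb7 (-0.28), Mecom (-0.019), Mki67 (-0.071) and Tyms (-0.033). With a gene's probes averaged they were Cd84 (-0.56), Iigp1 (-0.29), Itgb6 (0.16), Mecom (-0.23) and Tcf3 (-0.052), and within GC bins Itgb7 (-0.19). Of 175 named genes that passed, 148 kept their direction and call under all 20 settings run. The named genes outside the rule were chosen with these values known, so this share does not describe genes in general. Of 14 named genes that did not pass, 11 passed in some setting. Apart from the signs that receptor centring turns by construction, the cause was not tested.

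Same-numbered arrays shared a slide column, and their deviations from the group means correlated at 0.47, 0.04 and 0.50, against -0.52 to 0.14 for other pairs, so that not every pair exceeded 0.1 and the arrays were not treated as paired. With the replicate number, and so the slide column, as a block (replicate block), 8713 annotated genes were higher and 6744 lower, 343 and 1401 by 2-fold or more, and Itga2b differed by 0.86. Within the columns it differed by 0.77, 0.94 and 0.86, with 1 array a group in each. Array weights put 31.3 on CD41-positive replicate 2 and 0.43 to 0.56 on the other arrays, so that this setting rests largely on 1 array. With 3 arrays a group, an exact test of single values cannot give a p below 0.1, and genes near background have only a bound.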
